A study of Homo sapiens with 6 samples.

Results

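The BCL2 family sets the threshold of the mitochondrial pathway of apoptosis, and 10 of its genes were followed in gastric cancer cells in which SCAMP1, a membrane protein of secretory and recycling vesicles, was knocked down by shRNA. The genes were chosen by name, as the protein-coding rows of the expression table for 3 antiapoptotic members (MCL1, BCL2L1 and BCL2), 2 effectors (BAX and BAK1) and 5 BH3-only members (BIK, BID, PMAIP1, BCL2L11 and BBC3). All 10 were found among 58735 rows, of which 19951 were protein-coding genes. The cells were NCI-N87, an established human gastric carcinoma line with amplified ERBB2. RNA was sequenced from 3 libraries of control vector cells, named shNC in the sample labels and shCtrl in the study, and from 3 libraries of cells that carried an shRNA against SCAMP1, named shScamp1 in the labels and shS1#1 in the study. Cells of both groups were exposed to lentivirus for 24 h, selected with puromycin at 2 μg/ml, and kept as stable populations in the same medium. The model therefore was 1 cell line with 1 shRNA, and all cells, controls included, carried a lentiviral vector. Per the study the control vector was empty, so that an effect of carrying any shRNA cannot be told apart from that of SCAMP1 loss. The labels call the libraries biological replicates, but whether they came from separate infections is not stated in the sources used here, so that p-values measure only the spread between these libraries.

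Apoptosis through mitochondria begins when the effectors BAX and BAK1 oligomerise in the outer mitochondrial membrane and release cytochrome c, which activates caspases. The antiapoptotic proteins MCL1, BCL-xL (the main product of BCL2L1) and BCL2 hold the effectors and their activators in check. BH3-only proteins counter this hold: BIM (BCL2L11), PUMA (BBC3) and cleaved BID bind the antiapoptotic proteins and can activate the effectors, NOXA (PMAIP1) binds mainly MCL1, and BIK acts from the endoplasmic reticulum. All members share the BH3 segment, a short amphipathic helix that fits a groove on the antiapoptotic proteins. Much of the regulation of the family lies in protein turnover, phosphorylation and cleavage, none of which RNA levels show.

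To show what the 10 genes share in sequence, the coding part of each gene's principal transcript in GENCODE 29 was searched for the BH3 pattern of leucine, 3 residues of any kind, glycine or alanine, aspartate, 1 residue of any kind and a hydrophobic residue. Each of the 10 coding sequences held 1 match. Of 14161 coding sequences, 1 a gene, 8.0% held a match. These were limited to genes with a top-ranked principal transcript whose coding part starts with ATG, a limit not set for the members. Since the pattern describes the segment that the 10 genes are known to share, their matches locate it and are no test. Over 36 bases around the match, the 45 pairs of members were identical at 13 to 25 bases, and the most alike pairs were BAK1 with BID and BAK1 with BIK, at 25 bases each. The stretches of the 5 genes that passed the test of the knockdown described below, in the fit of all libraries or in that without 1 library, are given 5′ to 3′, with the codons of leucine and of glycine and aspartate in capitals.
MCL1 (GRCh38 chr1:150578865-150578900, minus strand, exon 1 of 3): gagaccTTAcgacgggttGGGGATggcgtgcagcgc
BCL2L1 (GRCh38 chr20:31721922-31721957, minus strand, exon 2 of 3): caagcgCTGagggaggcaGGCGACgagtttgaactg
BAK1 (GRCh38 chr6:33575387-33575422, minus strand, exon 4 of 6): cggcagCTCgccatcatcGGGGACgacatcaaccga
PMAIP1 (GRCh38 chr18:59902667-59902702, plus strand, exon 2 of 2): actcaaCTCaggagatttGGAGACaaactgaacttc
BIK (GRCh38 chr22:43127710-43127745, plus strand, exon 3 of 5): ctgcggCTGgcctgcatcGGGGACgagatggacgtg

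The glycine codon was written GGG, GGC or GGA in these genes, and the leucine codon TTA, CTG or CTC. The values that follow are sums over all transcripts of a gene and do not show whether a transcript held this stretch: it was present in 8 of 9 coding transcripts of BCL2L1, in 14 of 25 of BCL2L11 and in the only coding transcript of BIK.

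The targeted gene was checked first. SCAMP1 (chr5:78360583-78479071, hg38) measured 12.6, 12.1 and 11.5 FPKM in shCtrl and 1.70, 1.37 and 1.99 FPKM in shS1#1. FPKM is fragments per kilobase of gene, here scaled by a median-of-ratios size factor of each library and not by its total reads. The mean of SCAMP1 fell by 86.0%, from 12.1 ± 0.562 (SD, n = 3) to 1.69 ± 0.311 (SD, n = 3). Every shS1#1 library was below every shCtrl library. The libraries held 15064905 to 15988700 reads on genes in shCtrl and 14311769 to 14667628 in shS1#1. Epithelial markers were present (5 of 5 at 1 FPKM or more, with sums of 4221 to 4434 FPKM in shCtrl and 7727 to 8494 in shS1#1), and ERBB2 stood at 1201 to 1515 FPKM. Of 5 gastric markers none reached a mean of 1 FPKM, and their sum was 0.0911 to 0.308 FPKM in shCtrl and 0.591 to 1.00 FPKM in shS1#1. Of 4 intestinal markers 2 did, and their sum was 27.0 to 29.2 FPKM in shCtrl and 19.9 to 22.4 FPKM in shS1#1. Of 9 markers of leukocytes, endothelium and fibroblasts none reached that mean, with sums of 0.714 to 0.971 FPKM in shCtrl and 1.07 to 1.20 in shS1#1 and with COL1A2 and DCN at 0 in every library. The part of these marker differences in the members' results was not tested.

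The library shS1#1 replicate 2 stood apart from the other shS1#1 libraries, and the members' main results and the counts over the pathway lists are therefore given with and without it. Mitochondrial transcripts took 9.21% of its reads and 6.09 to 6.78% in the other 5 libraries. Against the mean of shS1#1 replicates 1 and 3, its log2 values moved with gene length. Of 7055 genes whose mean reached 5 FPKM, divided into 5 bins by length, the median difference was −0.42 in the bin of the shortest genes (up to 2404 bases) and 0.24 in that of the longest (from 7357 bases), whereas replicate 1 minus replicate 3 gave 0.07 and −0.06 in the same bins. The short member BIK, with 953 bases, differed most in that library. Since shS1#1 replicate 2 was singled out from these same data, p-values and intervals of the fit without it can be too small. In that fit the shS1#1 group is replicates 1 and 3 alone.

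Differences were tested with limma on log2(FPKM + 0.1), over the 15556 genes whose mean reached 0.5 FPKM, and a gene was called at a Benjamini-Hochberg adjusted p under 0.05. All log2 fold changes given are shS1#1 minus shCtrl on that scale, where the added 0.1 makes changes of low genes look smaller than they were. By this rule 14.0% of all genes were called, 8.82% higher (1372 genes) and 5.17% lower (805 genes) in shS1#1. Scaling the libraries to equal totals of reads turned that split into 1138 higher and 1268 lower. Of the 10 members 3 were called, all of them higher in shS1#1: BCL2L1, PMAIP1 and BAK1, each from another arm of the family. Without shS1#1 replicate 2 the call rate over all genes was 27.8%, and 5 members were called, MCL1 as higher and BIK as lower in addition. The groups did not overlap in 7 of 10 members (3 higher and 4 lower) and in 41.4% of all genes. The median log2 fold change of the members was 0.03, and that of all genes tested was −0.02. In these bulk samples, fewer cells that express a gene and less RNA per cell cannot be told apart.

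**Figure D1:**
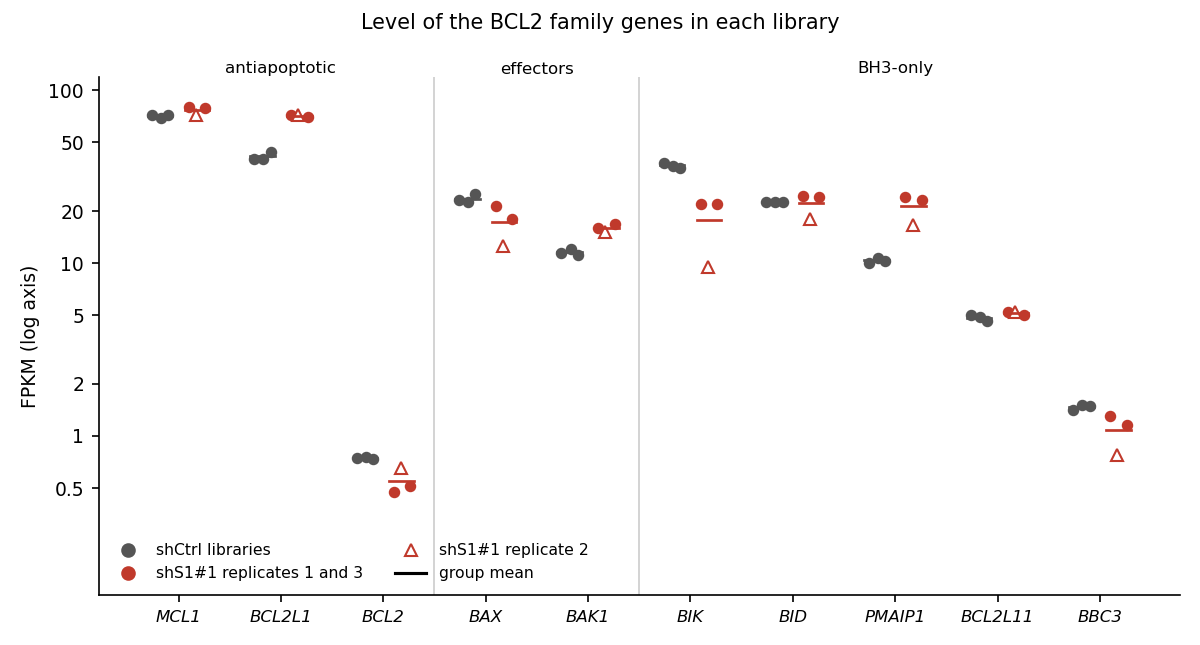
Level of each BCL2 family gene in each library, in FPKM on a log axis, with the genes grouped by role. Each point is 1 library, the triangle is shS1#1 replicate 2 and bars are group means. BCL2L1, BAK1 and PMAIP1 lie higher in all shS1#1 libraries, and BIK, BAX, BBC3 and BCL2 lower. The triangle is the lowest shS1#1 point in BIK, BID, BAX, BAK1, PMAIP1, BBC3 and MCL1.

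BCL2L1 was the antiapoptotic gene that rose in the fit of all libraries. BCL2L1 (chr20:31664452-31723989, minus strand) encodes BCL-xL and, by another splice choice, the proapoptotic BCL-xS, which these gene sums do not separate. It was at 40.0, 40.1 and 44.0 FPKM in shCtrl and 72.1, 71.8 and 70.1 FPKM in shS1#1. All 3 shS1#1 libraries lay in a narrow band far above the controls, and replicate 2 was within it. The mean rose 1.72-fold, from 41.4 ± 2.31 to 71.3 ± 1.09 FPKM (SD, n = 3), with a log2 fold change of 0.79 (SE 0.07, limma adjusted p = 0.00124). The gene was called in all 17 refits, with log2 fold changes of 0.71 to 0.84. BCL2L1 shares 1424 exonic bases with the antisense gene ABALON, which stood at 2.32 to 3.84 FPKM, and the counting is not stated to use strand, so that reads of the pair cannot be told apart.

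MCL1 (chr1:150574551-150579738, minus strand), which encodes a short-lived antiapoptotic protein, was the most abundant member in both groups. It stood at 71.6, 69.4 and 72.2 FPKM in shCtrl and at 79.6, 71.5 and 78.9 FPKM in shS1#1, and replicate 2 lay within the range of the controls. The log2 fold change was 0.11 (SE 0.07, 95% interval −0.06 to 0.28, limma adjusted p = 0.341). Without that library, which was set aside after its values were seen, it was 0.16 (95% interval 0.08 to 0.24). The limma adjusted p of 0.0193 passed the test in that fit. The ratio of BCL2L1 to MCL1 was 0.559, 0.578 and 0.610 in the shCtrl libraries and 0.906, 1.00 and 0.888 in the shS1#1 libraries.

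BCL2 itself (chr18:63123346-63320128, minus strand), the founding member of the family, was the least abundant of the 10 genes. It stood at 0.745, 0.755 and 0.732 FPKM in shCtrl and at 0.477, 0.652 and 0.511 FPKM in shS1#1, on 82 to 148 reads per library. Every shS1#1 library was below every control. The log2 fold change was −0.39, with a 95% interval of −0.95 to 0.16 (limma adjusted p = 0.296). In the count-weighted limma-voom fit of the recovered reads, which also scaled to total reads, the value was −0.53 (adjusted p = 0.0309). In the limma fit without shS1#1 replicate 2 it was −0.51 (adjusted p = 0.164).

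The effectors did not move together. BAK1 (chr6:33572547-33580293, minus strand), the effector that resides in the mitochondrial outer membrane, stood at 11.5, 12.0 and 11.1 FPKM in shCtrl and at 16.0, 15.1 and 16.8 FPKM in shS1#1. All shS1#1 libraries, replicate 2 among them, lay above the controls. The mean rose 1.38-fold, from 11.5 ± 0.465 to 16.0 ± 0.862 FPKM (SD, n = 3), with a log2 fold change of 0.46 (SE 0.07, limma adjusted p = 0.00981). The call was lost when shCtrl replicate 1 (0.46, adjusted p = 0.0576) or shCtrl replicate 3 (0.44, adjusted p = 0.0552) was left out, with little change in the value. BAK1 shares 91 exonic bases with a pseudogene on the other strand, GGNBP1, which stood at 0 to 0.0841 FPKM.

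BAX (chr19:48954815-48961798, plus strand), the effector that is mostly cytosolic until it is activated, stood at 23.0, 22.5 and 25.0 FPKM in shCtrl and at 21.5, 12.5 and 17.9 FPKM in shS1#1. The groups did not overlap, yet shS1#1 replicate 1 lay just under the controls and replicate 2 far under them. The log2 fold change was −0.47 (SE 0.19, 95% interval −0.94 to −0.01), and the limma adjusted p of 0.156 did not pass. Without replicate 2 the value was −0.26 (adjusted p = 0.0881). The ratio of BAK1 to BAX was 0.499, 0.534 and 0.443 in the shCtrl libraries and 0.746, 1.20 and 0.937 in the shS1#1 libraries, so that BAX exceeded BAK1 in all libraries but shS1#1 replicate 2.

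Among the BH3-only members, PMAIP1 and BIK had the largest differences, in opposite directions. PMAIP1 (chr18:59899948-59904306, plus strand) encodes NOXA, which binds MCL1 and promotes its degradation. It stood at 10.0, 10.8 and 10.3 FPKM in shCtrl and at 24.1, 16.5 and 23.2 FPKM in shS1#1. The lowest shS1#1 value, in replicate 2, was still well above the highest control. The mean rose 2.05-fold, from 10.4 ± 0.368 to 21.3 ± 4.14 FPKM (SD, n = 3), with a log2 fold change of 1.01 (SE 0.15, limma adjusted p = 0.00884). Without replicate 2 the log2 fold change was 1.18 (adjusted p = 0.000128), and the highest adjusted p in any of 17 refits was 0.0486. PMAIP1 was the only member that passed the test with an absolute log2 fold change above 1, a rule that 3.16% of all genes met. Its value was at that limit, and in 7 of the 17 refits, without shS1#1 replicate 1 or 3 and without shCtrl replicate 1 among them, it was 0.91 to 0.99 and did not meet the rule.

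BIK (chr22:43110748-43129712, plus strand), whose protein sits in the endoplasmic reticulum membrane, was the most abundant BH3-only gene of the controls, at 38.1, 36.6 and 35.5 FPKM. In shS1#1 it stood at 22.1, 9.50 and 21.9 FPKM. All shS1#1 libraries lay below the controls, with replicates 1 and 3 close together and replicate 2 under both, at a difference of −1.20 from their mean on the log2 scale. With that spread, the log2 fold change of −1.14 (SE 0.32, 95% interval −1.92 to −0.36) had an adjusted p of 0.0665 in limma and did not pass. Without replicate 2, set aside after its values were seen, the value was −0.74 (SE 0.04, limma adjusted p = 0.000315). Leaving out the farthest library itself narrows the spread. BIK also passed with limma-voom (−1.21, adjusted p = 0.0224), with protein-coding genes only (−1.14, adjusted p = 0.0361) and after removal of the length trend (−1.05, adjusted p = 0.0477).

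BID (chr22:17734138-17774770, minus strand), which caspase-8 cleaves to link death receptors with mitochondria, stood at 22.5, 22.5 and 22.6 FPKM in shCtrl and at 24.5, 18.0 and 24.0 FPKM in shS1#1. The controls were almost identical, and the shS1#1 libraries lay on both sides of them. The log2 fold change was −0.04 (95% interval −0.34 to 0.26, limma adjusted p = 0.863), and without replicate 2 it took the other sign, 0.10 (95% interval 0.02 to 0.19, adjusted p = 0.0696).

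BCL2L11 (chr2:111119378-111168447, plus strand), which encodes BIM, stood at 5.01, 4.86 and 4.61 FPKM in shCtrl and at 5.21, 5.24 and 4.99 FPKM in shS1#1. The groups overlapped, and the log2 fold change was 0.09 (95% interval −0.08 to 0.26, limma adjusted p = 0.413). It shares 727 exonic bases with MIR4435-2HG on the other strand, which stood at 1.33 to 2.94 FPKM. BBC3 (chr19:47220822-47232766, minus strand), which encodes PUMA, stood at 1.41, 1.51 and 1.49 FPKM in shCtrl and at 1.31, 0.781 and 1.16 FPKM in shS1#1, on 34 to 80 reads. The groups did not overlap, with a log2 fold change of −0.43 (95% interval −0.92 to 0.06, limma adjusted p = 0.205). Without replicate 2 it was −0.23 (adjusted p = 0.229). For each of the 7 members without overlap, the exact two-sided permutation test gave p = 0.1, the smallest that 3 against 3 libraries allow.

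**Figure D2:**
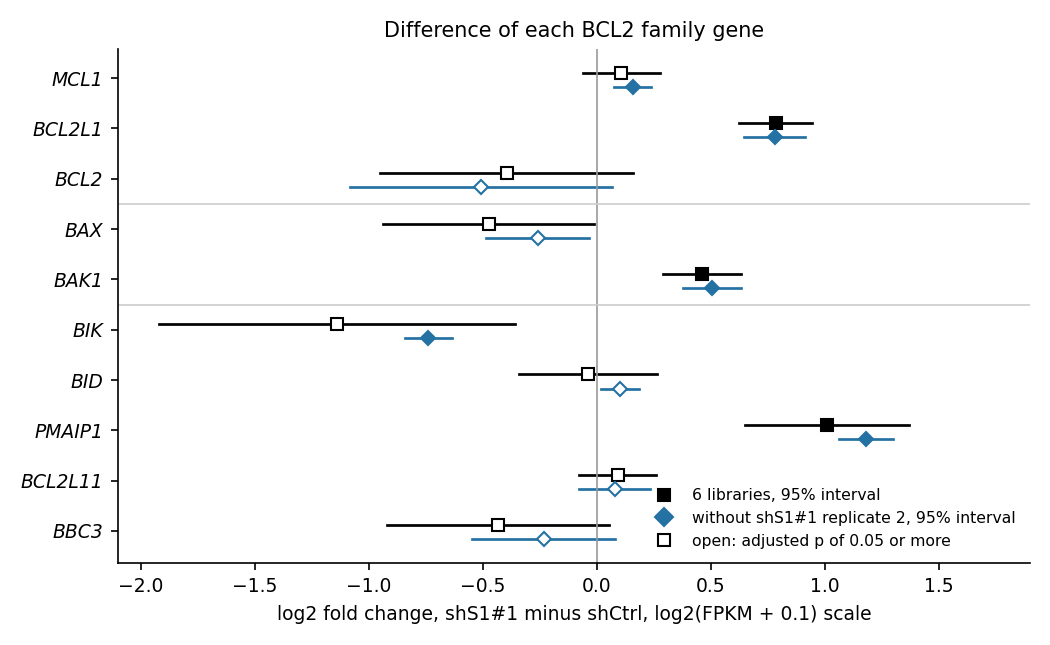
Log2 fold change of each member, shS1#1 minus shCtrl, on the log2(FPKM + 0.1) scale. Squares are the fit of 6 libraries, diamonds the fit without shS1#1 replicate 2, lines 95% intervals, and filled symbols an adjusted p under 0.05. BCL2L1, BAK1 and PMAIP1 are filled in both fits, and the interval of BIK narrows from −1.92 to −0.36 to −0.84 to −0.64 without that library.

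The order of levels within the family, in FPKM and so per length, changed between the groups. In shCtrl the order of means was MCL1, BCL2L1, BIK, BAX, BID, BAK1, PMAIP1, BCL2L11, BBC3 and BCL2, and of these neighbours only BAX and BID had overlapping ranges. In shS1#1 it was MCL1, BCL2L1, BID, PMAIP1, BIK, BAX, BAK1, BCL2L11, BBC3 and BCL2. There the ranges of MCL1 and BCL2L1 overlapped, as did each pair of neighbours from BID to BAK1, so that over all shS1#1 libraries the order among these 5 is not resolved. Most of these overlaps came from shS1#1 replicate 2. In replicates 1 and 3 alone, of these neighbours only BID (24.5 and 24.0 FPKM) and PMAIP1 (24.1 and 23.2 FPKM) overlapped. Over all shS1#1 libraries BIK, which stood apart from both its neighbours in shCtrl, was within the unresolved set from BID to BAK1, and so was PMAIP1.

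Summed over the 10 genes, the level was 224, 221 and 228 FPKM in the shCtrl libraries and 267, 222 and 259 FPKM in the shS1#1 libraries. Of this sum the 3 antiapoptotic genes took 50.2, 49.9 and 51.4% in shCtrl and 57.0, 64.9 and 57.6% in shS1#1. The BH3-only genes took 34.4, 34.5 and 32.7% in shCtrl and 28.92, 22.60 and 28.99% in shS1#1, and the effectors 15.4, 15.6 and 15.9% against 14.1, 12.5 and 13.4%. The shares of the 3 roles did not overlap between the groups, with shS1#1 replicate 2 farthest from the controls in each. The sums themselves did so only for the antiapoptotic genes, at 112, 110 and 117 FPKM in shCtrl and 152, 144 and 150 FPKM in shS1#1. The BH3-only genes summed to 77.0, 76.3 and 74.5 FPKM in shCtrl and 77.2, 50.1 and 75.2 FPKM in shS1#1, and the effectors to 34.5, 34.5 and 36.1 FPKM against 37.5, 27.6 and 34.7 FPKM, so that both sums overlapped and were low in replicate 2 alone. Within the BH3-only genes the make-up shifted as well: PMAIP1 over BIK was 0.264, 0.294 and 0.289 in shCtrl and 1.09, 1.74 and 1.06 in shS1#1. The ratio of BCL2L1 to BAX was 1.74, 1.78 and 1.76 in shCtrl and 3.36, 5.72 and 3.91 in shS1#1. These sums and ratios describe RNA of genes whose proteins differ in stability, and no test was made of them.

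**Figure D3:**
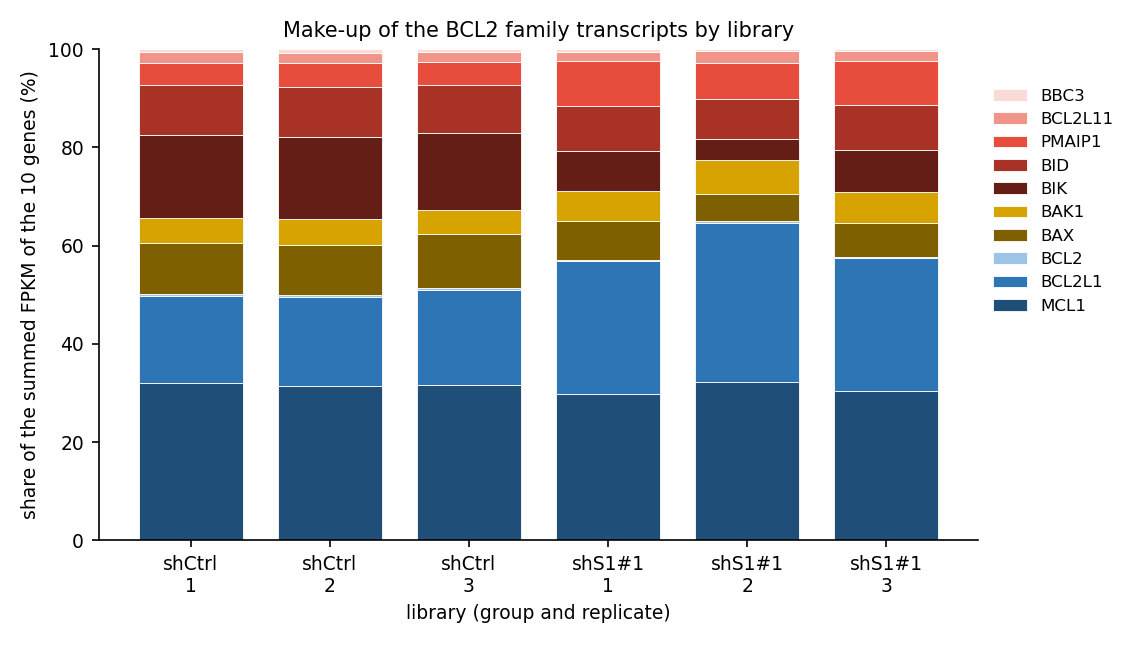
Share of each gene in the summed FPKM of the 10 genes, in percent, for each library (blue antiapoptotic, yellow effectors, red BH3-only). The antiapoptotic share is 49.9 to 51.4% in shCtrl and 57.0 to 64.9% in shS1#1, where the share of BCL2L1 is wider and that of BIK narrower.

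The distance of shS1#1 replicate 2 from the other shS1#1 libraries differed among the members. The log2 difference of that library from the mean of replicates 1 and 3 was −1.20 in BIK (953 bases), −0.64 in BAX (2587 bases), −0.60 in BBC3 (3180 bases), −0.52 in PMAIP1 (2235 bases) and −0.43 in BID (4446 bases). It was −0.15 in MCL1 (4371 bases), −0.12 in BAK1 (2212 bases), 0.01 in BCL2L1 (3314 bases), 0.04 in BCL2L11 (6658 bases) and 0.34 in BCL2 (11765 bases). The shortest and the longest member were thus at the ends, while BAK1 and PMAIP1, of nearly the same length, stood apart from each other. The part of gene length and of the mitochondrial share in the members' results was not tested beyond the fit with the length trend removed.

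**Figure D4:**
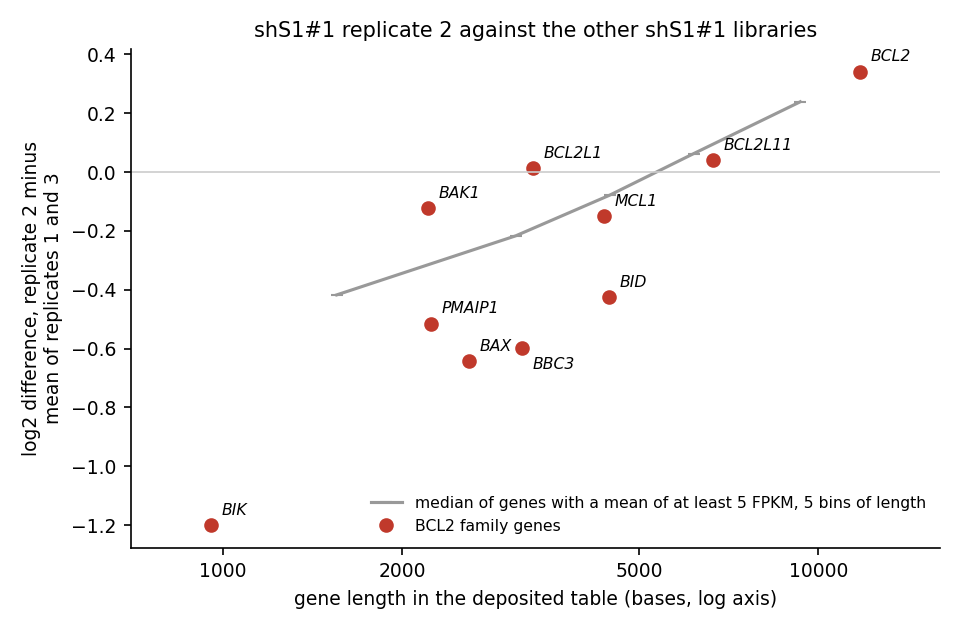
Difference of shS1#1 replicate 2 from the mean of shS1#1 replicates 1 and 3 on the log2 scale, against gene length on a log axis. Points are the members, and the line joins the medians of 5 bins of gene length, over genes whose mean reached 5 FPKM, from −0.42 to 0.24. BIK lies at −1.20, and BCL2L1, BCL2L11, BAK1 and MCL1 lie within 0.15 of 0.

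By pattern over the 6 libraries, the genes most like BCL2L1, the member with the smallest p, were MEF2D, a transcription factor (Pearson r = 0.9987), AOC1, a diamine oxidase (0.9984), and GSN, the actin-severing protein gelsolin (0.9981). AOC1 stood at 29.8 ± 2.36 FPKM in shCtrl and 104 ± 1.64 FPKM in shS1#1 (SD, n = 3). These values are a description over libraries that form 2 groups, and of 6576 protein-coding genes compared, 532 had an r above 0.95.

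The promoters of the 3 members that rose were read to see whether they shared letters of known response elements. Windows of 300 bases around the start site (250 before and 50 after it) were given by RefSeq for 8 of the 10 members, in 13 windows, and were searched on both strands for 5 motifs. The 250 bases before the start site are given 5′ to 3′ for these genes, with the half-site of the cyclic AMP response element (TGACG) in capitals in BCL2L1 and, read on the other strand as CGTCA, in PMAIP1, and the GC box (GGGCGG, or CCGCCC on the other strand) in capitals in BAK1. BCL2L1 had 2 windows, of which the first listed is given.
BCL2L1 (GRCh38.p14 chr20:31723964-31724213, minus strand): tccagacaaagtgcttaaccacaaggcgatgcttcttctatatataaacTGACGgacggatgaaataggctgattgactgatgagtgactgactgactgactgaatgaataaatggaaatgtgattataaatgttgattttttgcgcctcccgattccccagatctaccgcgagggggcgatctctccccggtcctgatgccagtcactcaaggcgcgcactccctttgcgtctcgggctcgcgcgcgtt
PMAIP1 (GRCh38.p14 chr18:59899746-59899995, plus strand): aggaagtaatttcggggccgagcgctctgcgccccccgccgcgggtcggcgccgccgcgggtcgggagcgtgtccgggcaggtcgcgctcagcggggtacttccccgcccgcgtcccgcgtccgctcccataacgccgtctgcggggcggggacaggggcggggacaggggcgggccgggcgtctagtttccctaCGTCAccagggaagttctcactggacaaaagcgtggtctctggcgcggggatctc
BAK1 (GRCh38.p14 chr6:33580277-33580526, minus strand): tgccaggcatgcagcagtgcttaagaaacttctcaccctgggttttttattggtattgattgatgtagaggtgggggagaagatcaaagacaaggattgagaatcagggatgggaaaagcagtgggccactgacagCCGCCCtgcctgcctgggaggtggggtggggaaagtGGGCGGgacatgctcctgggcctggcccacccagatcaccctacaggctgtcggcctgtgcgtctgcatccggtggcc

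The TGACG half-site began at position −201 of BCL2L1 and −55 of PMAIP1, counted back from the start site. Windows of BAX and BCL2, which were not called, and 24.55% of all 35116 windows also held it. The GC box began at positions −114 and −78 of BAK1, and windows of 6 members, the 3 that rose among them, and 44.95% of all windows held it. In BCL2L1 the GC box was only in the window not given above, and the half-site only in the window that is given. The full element TGACGTCA, of which TGACG is part, was in 0 of the 13 member windows and in 1.85% of all windows. The forkhead motif GTAAACA was in the BCL2L11 window, at position −223, and in 3.42% of all windows. BAX held the E-box CACGTG at 4 places between positions −138 and −14, and BBC3 and BID also held it, as did 7.26% of all windows. These matches describe letters and not binding.

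Around the 10 genes, 84 other genes of the apoptosis pathway were taken from 7 lists, of which 72 were tested and 14 (19.4%) were called, 11 higher and 3 lower, beside 14.0% of all genes. The 5 lists described here held 57 genes, of which 47 were tested and 8 (17.0%) were called, 7 higher and 1 lower. Without shS1#1 replicate 2, 17 of the 47 (36.2%) were called, beside 27.8% of all genes. In the fit of all libraries the median log2 fold change of the 47 genes was 0.079. Of the 8 only TNFSF10 and CFLAR were called in every one of 17 refits.

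In the death receptor list 4 of 10 genes tested were called, all higher, beside 14.0% of all genes. Without shS1#1 replicate 2, 7 of the 10 were called, counted in either direction, beside 27.8% of all genes. TNFSF10, the ligand TRAIL, rose from 2.28 ± 0.208 to 6.87 ± 0.399 FPKM (SD, n = 3), a log2 fold change of 1.55 (SE 0.10, limma adjusted p = 0.000547). CFLAR, which encodes the caspase-8 inhibitor c-FLIP, rose from 2.85 ± 0.126 to 5.13 ± 0.173 FPKM (log2 fold change 0.83, adjusted p = 0.00158). TNFRSF1A, a receptor of TNF, and RIPK1, a kinase below it, had smaller rises of 0.32 (adjusted p = 0.0173) and 0.31 (adjusted p = 0.0478). Among inhibitors of apoptosis, 1 of 5 genes tested was called in either fit, BIRC2 (0.39, adjusted p = 0.0221), which encodes the ubiquitin ligase cIAP1.

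In the list of caspases and the apoptosome, limma called 0 of 10 genes tested, beside 14.0% of all genes. At an unadjusted p under 0.05 there were 4, beside 4782 of all 15556 genes tested, and limma-voom called 2, beside 2955 of all. Without shS1#1 replicate 2, limma called 3 of the 10, beside 27.8% of all genes. The 4 at an unadjusted p under 0.05, named after their values were seen, were CYCS, which encodes cytochrome c (−0.55, limma adjusted p = 0.0542), CASP2 (−0.30, adjusted p = 0.0624), HTRA2 (−0.36, adjusted p = 0.150) and CASP8 (0.23, adjusted p = 0.140).

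Of the other BCL2 family genes, 1 of 9 tested was called, beside 14.0% of all genes. It was BNIP3L (0.35, adjusted p = 0.0467), which encodes the mitophagy receptor NIX. Without shS1#1 replicate 2, 3 of the 9 were called, beside 27.8% of all genes. HRK, a BH3-only gene named after its values were seen, was under the filter and was not tested there. It stood at 0.515, 0.648 and 0.520 FPKM in shCtrl and at 0.0999, 0.0959 and 0.130 FPKM in shS1#1, on 55 to 74 and 9 to 13 reads. Every shS1#1 library was far below the controls, and in the fit without a filter its log2 fold change was −1.66 (SE 0.28, limma adjusted p = 0.0280).

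Of 13 binding partners and turnover factors of the BCL2 proteins, 2 were called, beside 14.0% of all genes. BAG3, a co-chaperone, rose (0.24, adjusted p = 0.0382). DYNLL2, a dynein light chain that binds the BH3-only protein BMF, fell (−0.33, adjusted p = 0.0287). Without shS1#1 replicate 2, 3 of the 13 were called, beside 27.8% of all genes.

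**Figure D5:**
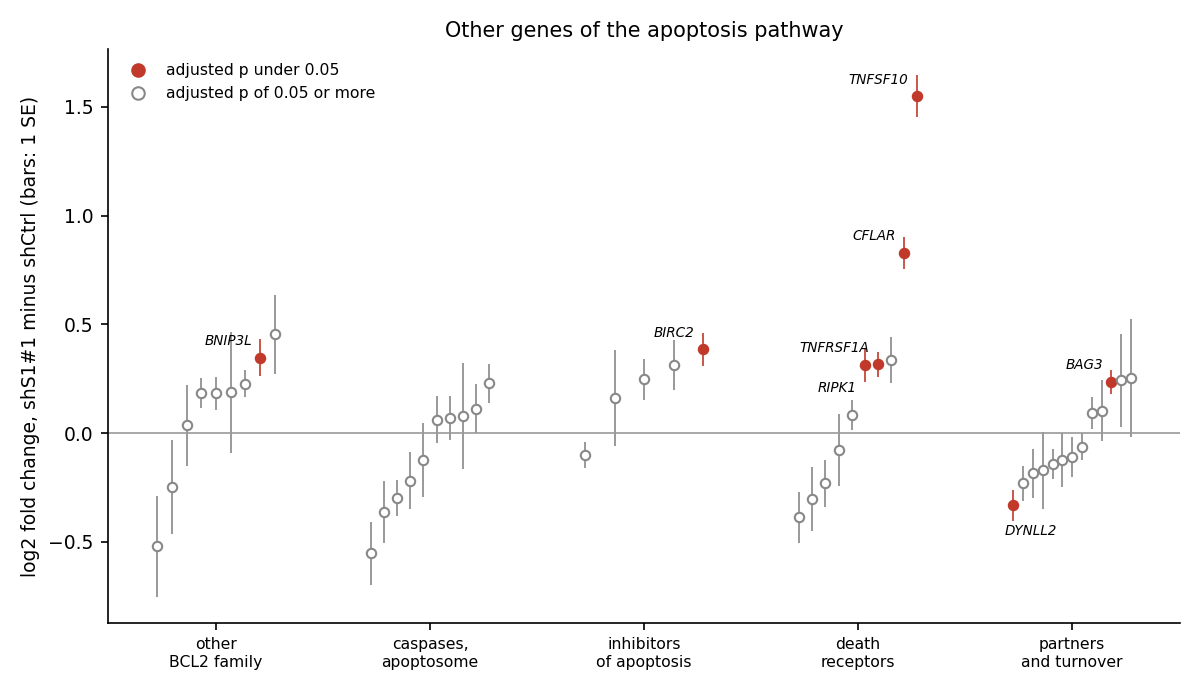
Log2 fold change (shS1#1 minus shCtrl) of the 47 tested genes of 5 apoptosis lists, with bars of 1 SE. Filled points passed an adjusted p of 0.05 and are named. Among the filled points TNFSF10 (1.55) and CFLAR (0.83) lie highest, and DYNLL2 (−0.33) is the one below 0.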

How the data were processed

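RNA-seq of 6 NCI-N87 libraries was used, 3 shCtrl and 3 shS1#1. Per the labels, the submitters' processing notes name HISAT2 2.0.5, featureCounts 1.5.0-p3, DESeq2 1.20.0 and hg38. Whether counting used strand is not given in the sources used here. The authors deposited FPKM per gene, with gene length, coordinates and biotype. In 100% of values above 0, FPKM multiplied by the length of the gene gave whole multiples of a step per library (tolerance 0.01), which gave reads per gene. The step times a median-of-ratios size factor was equal in the 6 libraries, so that the deposited FPKM hold that scaling.

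Differences were fitted in R 4.3.3 with limma 3.58.1 (lmFit, eBayes with a mean-variance trend) on log2(FPKM + 0.1) for genes whose mean reached 0.5 FPKM, with Benjamini-Hochberg adjustment over all genes tested and a threshold of 0.05. The fit was also run on simulated reads, in which no library was set apart by gene length. That run does not show how the fit performs with a library such as shS1#1 replicate 2. Alternatives were 2 other pseudocounts, other filters, other scalings, limma-voom on the recovered reads, no trend, a replicate block and each library left out. The limma-voom fit also scaled the libraries to their total reads. Removal of a length trend was an alternative added after seeing the data.

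The members and lists were chosen with earlier results of these data known. All members, SCAMP1, and genes of the lists that passed the test were named, with exceptions marked in the text. MARCHF5 was matched by gene ID, since its symbol is stored as a date. DIABLO had 2 rows, neither tested. Some genes of the 7 pathway lists are not reported here. The BH3 stretches came from GENCODE 29 on GRCh38, and promoters from RefSeq on GRCh38.p14. Intervals cover only the spread between these libraries.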

Additional observations from a re-analysis of the deposited data

How the results depend on the processing

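BCL2L1 and PMAIP1 were called in all 17 refits. Of 226 recomputed values, 196 kept their direction and side of the threshold or stayed within 1.5 times the count given. The log2 fold change of BCL2 passed with voom (−0.53). MCL1 passed without shS1#1 replicate 2 (0.16), where BID took the other sign (0.10). BIK passed with voom (−1.21), with protein-coding genes only (−1.14), with the length trend removed (−1.05) and without shS1#1 replicate 2 (−0.74). BAK1 no longer passed with the replicate block (0.46) and without shCtrl replicate 1 (0.46) or 3 (0.44). Leaving out each library gave log2 fold changes of 0.76 to 0.83 for BCL2L1, 0.91 to 1.18 for PMAIP1, 0.43 to 0.51 for BAK1, −1.34 to −0.74 for BIK, 0.080 to 0.16 for MCL1, −0.12 to 0.10 for BID, −0.65 to −0.26 for BAX, −0.57 to −0.23 for BBC3, −0.51 to −0.32 for BCL2 and 0.06 to 0.12 for BCL2L11. Calls then ranged from 808 to 4330 over all genes, 2 to 5 over the members and 5 to 30 over the pathway lists, with the highest counts without shS1#1 replicate 2.

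The replicate block gave 958 genes, 2 members and 5 pathway genes. Same-numbered libraries had deviations from their group means that correlated at −0.04, 0.03 and 0.07, and other pairs at −0.08 to 0.05. With 3 libraries per group, these values cannot show whether same-numbered libraries shared a culture or batch, which the sources do not state. The main fit did not use the pairing. An absolute log2 fold change above 1 left 492 genes, 1 member and 3 pathway genes, and an unadjusted p under 0.05 gave 4782, 5 and 31. Voom, which also scaled to total reads, called 5 members, and over all genes 1300 higher and 1655 lower. BCL2 has no value with a filter of 1 FPKM, which it did not reach. The cause of these changes was not tested.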
